A study of Arabidopsis arenosa x Arabidopsis thaliana and Arabidopsis thaliana and Arabidopsis arenosa with 5 samples.

Results

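In 86 loci, the copy inherited from Arabidopsis arenosa was listed at 0 RPKM (a read density scaled to transcript length and library size) in rosette leaves of an F8 allotetraploid, of A. suecica, or of both, while the A. thaliana copy was expressed. They were 86 of the 11014 loci listed in at least 1 of both tables. A locus was taken where the A. arenosa allele was at 0 in every transcript that the table listed for it. Loci from AT3G62290 to AT3G63520 were left out, and 1 further locus with that pattern lay there. The allele was at 0 at 38 loci in F8 and at 55 in A. suecica, and 7 loci were in both groups. The loci were chosen by these allele values in F8 and A. suecica, so the zeros themselves are a description and were not tested.

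The study compared mRNA from rosette leaves of 5 groups of tetraploid plants, collected before bolting. The parents were an autotetraploid A. thaliana of the Landsberg erecta ecotype, 3 to 4 weeks old, and an autotetraploid A. arenosa, Care-1, 6 to 7 weeks old. The other groups, all 6 to 7 weeks old, were resynthesized allotetraploids of the F1 generation, allotetraploids of the F8 generation, and A. suecica, a natural allotetraploid that carries genomes of both species. All were grown with 16 h of light at 22 °C and 8 h of dark at 20 °C. Each parent and the F1 had 3 replicate columns and F8 and A. suecica 1 library each, so nothing in F8 or A. suecica has a replicate check. The labels do not say which plants the replicate columns came from, so p-values measure only the spread between these columns, which may be technical. Species and plant age cannot be told apart between the parents.

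An allotetraploid holds 2 sets of gene copies, 1 from each parental species, and copies of the same gene from the 2 species are called homoeologs. One homoeolog of a pair can lose its transcript through DNA methylation and histone changes, through loss or rearrangement of the copy itself, or because the regulatory sequences of the species had already diverged. Studies of Arabidopsis allotetraploids are known for finding A. arenosa and A. thaliana copies silenced in some lines and not in others. In leaf RNA, fewer cells that express a copy and less RNA per cell cannot be told apart. A value of 0 in a table without read counts can also be a failed estimate, and the number of reads that told the alleles apart at a locus is unknown.

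Facts of the tables set what a 0 means here. The F1 table held a transcript only if neither allele was at 0 in any replicate, the smallest allele value being 0.0113 RPKM, so that an A. arenosa allele above 0 in the F1 at all 86 loci is a property of that table. Totals in F8 and A. suecica were all above 2 RPKM. Isoforms of a locus had nearly the same allele share, with a median gap of 0.798 percentage points over 2613 loci in F8 and 1.05 over 2523 in A. suecica, so isoforms were not separate evidence. Leaf markers were at 274 to 23805 RPKM in the parents and flower markers at no more than 1.35. Each leaf marker rose from replicate 1 to 3 in A. thaliana and, for both alleles, in the F1. RBCS1A was at 1170, 3388 and 12983 RPKM in A. thaliana and at 5247, 6849 and 9663 RPKM in A. arenosa. Its F1 alleles were at 475, 1368 and 2973 RPKM for A. thaliana and at 1097, 2456 and 4719 RPKM for A. arenosa. The summed RPKM of the A. thaliana columns was 389806, 517799 and 776024. The part of these rises in the results was not tested. The root marker PYK10 was at 0.164, 1.62 and 15.5 RPKM in A. thaliana and at no more than 1.34 in A. arenosa, and its part in the results was not tested. Ribosomal RNA took 59.6% of the summed RPKM in A. arenosa replicate 1 and 0.232% to 2.56% in the other parental columns.

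The A. arenosa allele was at 0 at 0.349% of the 10890 loci listed in F8 and at 0.507% of the 10847 listed in A. suecica. The A. thaliana allele was at 0 more often, at 119 loci or 1.09% in F8 and at 143 loci or 1.32% in A. suecica. The 7 shared loci made 18.4% of the F8 list and 12.7% of the A. suecica list. For the A. thaliana allele, 37 loci were at 0 in both, which was 31.1% and 25.9% of the lists. Where the A. arenosa allele was at 0, the A. thaliana allele had a median of 11.7 RPKM in F8, from 2.42 to 1644, and was at 10 RPKM or more at 21 of 38 loci. In A. suecica its median was 9.64 RPKM, from 2.03 to 618, and 25 of 55 loci were at 10 RPKM or more. Just outside the rule in F8 were AT3G18535 with 0.00563 RPKM of the A. arenosa and 23.2 of the A. thaliana allele, CAX5 with 0.0181 and 2.20, and AT1G76240 with 0.0237 and 2.76. In A. suecica they were TTR1 (AT5G45050) with 0.0100 and 2.16, AT4G34840 with 0.0223 and 2.47, and AT5G40060 with 0.0344 and 3.88.

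The 7 loci at 0 in both allotetraploids encode defence and hormone proteins beside less studied ones. ESP (AT1G54040), the epithiospecifier protein that turns glucosinolate breakdown towards nitriles, stood at 128, 488 and 2382 RPKM in A. thaliana replicates 1 to 3 and at 7.33, 8.13 and 9.29 RPKM in A. arenosa. In the F1 its A. thaliana allele was at 133, 350 and 1253 RPKM and its A. arenosa allele at 0.531, 0.281 and 0.117 RPKM. The A. thaliana allele was at 1644 RPKM in F8 and at 618 RPKM in A. suecica. The A. arenosa transcript was thus present in its own species and was the lower copy in the parents and in every F1 replicate, with no overlap. The parental difference, A. arenosa minus A. thaliana on the scale of log2(RPKM + 1) used for all differences here, was -5.85 (SE 0.96, limma with Benjamini-Hochberg adjusted p = 0.0077), and the F1 allele ratio was -8.23 (SE 0.62, limma adjusted p = 0.0022).

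FAMT (AT3G44860), a methyltransferase named for farnesoic acid, was at 67.5, 92.9 and 49.2 RPKM in A. thaliana and at 14.0, 9.89 and 16.1 RPKM in A. arenosa. Its F1 alleles were at 41.8, 34.7 and 55.5 RPKM for A. thaliana and at 29.3, 0.200 and 4.03 RPKM for A. arenosa. Both sets of groups were apart, but the A. arenosa allele of F1 replicate 1 was far above the other two. The parental difference was -2.28 (SE 0.31, limma adjusted p = 0.0038) and the F1 ratio -2.96 (SE 0.76, limma adjusted p = 0.033). Without F1 replicate 2 or 3 the F1 call was lost, at limma adjusted p = 0.0733 and 0.0636, as it was with a pseudocount of 0.1 RPKM (limma adjusted p = 0.0568) and without the pairing of alleles within a replicate (limma adjusted p = 0.0806). FAMT has a near copy, AT3G44870, at 92.1% identity in the TAIR10.1 coding sequences, so reads could be split between them.

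AFB5 (AT5G49980), an F-box protein of the family of auxin receptors, was at 22.9, 19.7 and 27.5 RPKM in A. thaliana against 4.11, 4.54 and 4.62 RPKM in A. arenosa. In the F1 the A. thaliana allele was at 18.1, 13.3 and 12.4 RPKM and the A. arenosa allele at 0.821, 3.04 and 8.06 RPKM. The groups did not overlap in the parents or in the F1, and the A. thaliana allele stayed at 14.2 RPKM in F8 and 9.64 RPKM in A. suecica. The parental difference was -2.16 (SE 0.19, limma adjusted p = 0.0007) and the F1 ratio -1.92 (SE 0.49, limma adjusted p = 0.033). The F1 call was lost without F1 replicate 2, at limma adjusted p = 0.0652. The nearest copy of AFB5, AT4G24390, was at 81.9% identity.

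AT5G03350, a lectin of the legume type, was at 287, 354 and 84.5 RPKM in A. thaliana and at 61.7, 31.2 and 24.7 RPKM in A. arenosa. Its F1 alleles were at 85.5, 27.4 and 19.4 RPKM for A. thaliana and at 6.85, 2.11 and 4.78 RPKM for A. arenosa. The A. thaliana copy was above the A. arenosa copy in the parents and in the F1, with no overlap. The F1 ratio was -2.82 (SE 0.33, limma adjusted p = 0.0039). The parental difference of -2.47 (SE 0.62, limma adjusted p = 0.036) lost its call without A. thaliana replicate 1 or 2 and without A. arenosa replicate 2 or 3, at limma adjusted p of 0.0913 to 0.134. It also lost the call with no filter on low values (limma adjusted p = 0.104). In F8 and A. suecica the A. thaliana allele was at 11.7 and 8.69 RPKM, below each of its F1 values.

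AT1G03400, a dioxygenase that uses 2-oxoglutarate and iron, was at 35.8, 48.3 and 33.3 RPKM in A. thaliana and at 11.3, 7.89 and 7.66 RPKM in A. arenosa. In the F1 the alleles were at 17.1, 14.9 and 14.5 RPKM for A. thaliana and at 3.27, 1.73 and 3.21 RPKM for A. arenosa. The groups were apart in both, and the A. thaliana allele was lower in F8, at 5.93 RPKM, than in any F1 replicate, and higher in A. suecica, at 21.1 RPKM. The parental difference was -2.01 (SE 0.25, limma adjusted p = 0.0024) and the F1 ratio -2.17 (SE 0.19, limma adjusted p = 0.0025). The nearest copy, AT1G03410, was at 81.7% identity over 70.9% of the coding length.

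The other two loci of the shared group had low levels. AT3G19508, of the LYR family of small mitochondrial proteins, was at 5.24, 1.01 and 2.93 RPKM in A. thaliana and at 3.75, 5.76 and 4.77 RPKM in A. arenosa, and its parents overlapped. Its F1 A. arenosa allele was at 3.18, 0.182 and 0.777 RPKM beside 5.83, 5.15 and 2.89 RPKM of the A. thaliana allele. These overlapped, though the A. arenosa allele was the lower within each replicate. The ratio was -1.41 (SE 0.33, limma adjusted p = 0.025). The call was lost without F1 replicate 2 (limma adjusted p = 0.0804) and without the pairing of alleles (limma adjusted p = 0.0767). AT3G48425, a protein of the DNase I type, was between 2.61 and 3.99 RPKM in all parental columns and was under the minimum level of both tests. Its F1 A. arenosa allele was at 2.93, 1.08 and 0.0774 RPKM and its A. thaliana allele at 2.74, 3.68 and 3.69 RPKM, and these overlapped.

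**Figure D1:**
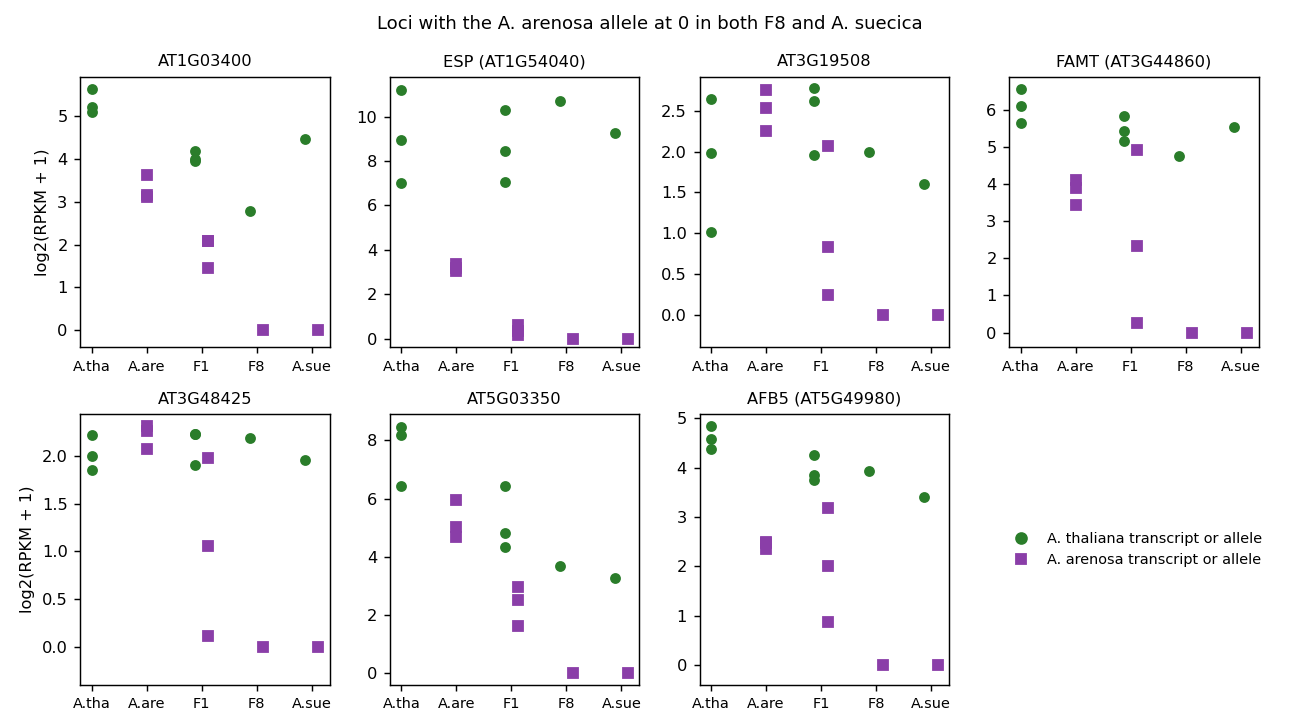
Level of each copy of the 7 loci at 0 in both allotetraploids, as log2(RPKM + 1), by group (A.tha and A.are are the parents, A.sue is A. suecica). Points are replicate columns (3 per parent and for the F1, 1 for F8 and A. suecica); every F1 A. arenosa allele lies above 0, and at 5 loci every A. arenosa point lies below every A. thaliana point of the same group.

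In the F1, most of the tested loci at 0 in F8 had the A. arenosa allele as the lower one, though not all. Of 38 such loci, 37 had enough signal in the F1 to be tested, at a mean sum of alleles of at least 5 RPKM. The A. thaliana allele was called higher, at 2-fold or more and a limma adjusted p below 0.05, at 25 of them, and the A. arenosa allele at none (0). The background over all 10223 loci tested was 4.42% and 8.47%. At an unadjusted limma p below 0.05 the counts were 26 and 0. Without F1 replicate 2, 15 were called with the A. thaliana allele higher. The median F1 ratio of the 37 loci was -1.60, against 0.05 for all loci tested. Their median A. arenosa share of the locus was 16.2%, 18.4% and 34.3% in F1 replicates 1, 2 and 3, beside 51.9%, 51.0% and 50.1% for all listed loci. The F1 share was lowest in replicate 1 at 24 of 38 of these loci, with a background of 34.2%, so the 3 replicates did not show the allele equally low.

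The loci at 0 in A. suecica were less uniform in the F1. Of 52 tested, the A. thaliana allele was called higher at 15 and the A. arenosa allele at 9, beside the same background. The fit that leaves out the pairing of alleles within a replicate called the A. arenosa allele higher at 3. The median F1 ratio was -0.31. The median A. arenosa share was 42.8%, 45.2% and 40.2% in the 3 replicates. Alleles of the F1 did not overlap, with A. arenosa lower, at 23 of the 38 loci of the F8 group and 19 of the 55 of the A. suecica group, where 15.6% of all listed loci did so. They did not overlap, with A. arenosa higher, at 0 and 12 loci, with a background of 19.2%. The A. arenosa share was below 50% in all 3 F1 replicates at 25 of 38 and at 25 of 55 loci, where 27.9% of all listed loci had such shares. Loci where the A. thaliana allele was at 0 had the opposite ratios: the A. arenosa allele was called higher in the F1 at 85 of 105 tested for F8 and at 86 of 128 for A. suecica.

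**Figure D2:**
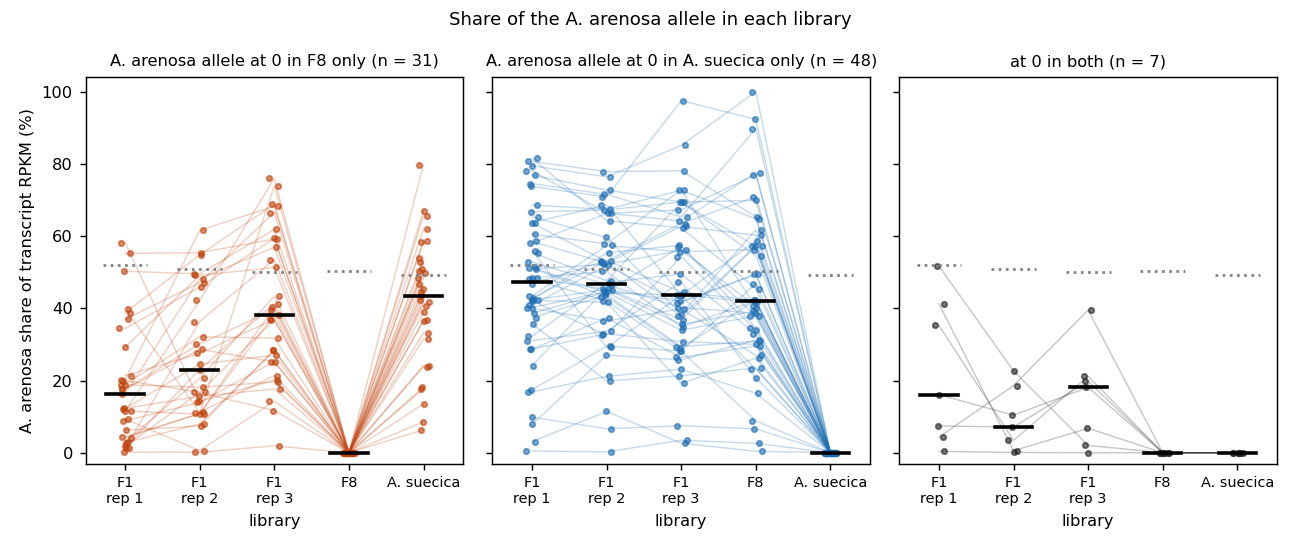
Share of the A. arenosa allele (%) in each F1 replicate, F8 and A. suecica, in panels by the library or libraries where the allele was at 0. Each point is 1 locus, thin lines join the same locus, the black bar is the median of the panel's loci and the dotted grey bar that of all listed loci; the zeros are set by the rule, and the F1 medians of the loci at 0 in F8 only are 16.3%, 23.1% and 38.2%.

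The largest F1 differences among the loci at 0 in F8 only were at TCH3 (AT2G41100), a calmodulin-like protein induced by touch. It was at 133, 105 and 62.8 RPKM in A. thaliana and at 22.8, 36.2 and 33.0 RPKM in A. arenosa. Its F1 alleles were at 228, 147 and 240 RPKM for A. thaliana and at 0.408, 0.224 and 4.72 RPKM for A. arenosa. The copies were apart in the parents and much farther apart in the F1, with a parental difference of -1.64 (SE 0.36, limma adjusted p = 0.023) and an F1 ratio of -6.55 (SE 0.37, limma adjusted p = 0.0012). The parental call was lost in each fit that left out any 1 of 5 columns, all but A. thaliana replicate 3, at limma adjusted p of 0.0569 to 0.0917. It was also lost with no filter on low values and with replicate number as a block (limma adjusted p = 0.053 and 0.0538). F8 held 103 RPKM of the A. thaliana allele, and A. suecica 11.2 RPKM of it and 1.05 RPKM of the A. arenosa allele.

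Chloroplast proteins stood among the loci with the highest A. thaliana allele in F8. LrgB (AT1G32080), known as the plastid glycolate and glycerate transporter of photorespiration, was at 36.2, 71.7 and 237 RPKM in A. thaliana and at 164, 150 and 184 RPKM in A. arenosa. Its F1 alleles were at 26.1, 49.3 and 54.9 RPKM for A. thaliana and at 26.4, 48.4 and 89.0 RPKM for A. arenosa, which overlapped. F8 had 99.8 RPKM of the A. thaliana allele, while A. suecica had 88.9 and 125 RPKM. Neither the parental difference of 0.95 (SE 0.65, limma adjusted p = 0.35) nor the F1 ratio of 0.22 (SE 0.19, limma adjusted p = 0.41) passed the test. HCF106 (AT5G52440), a component of the thylakoid protein translocase, was at 27.7, 33.5 and 36.2 RPKM for the A. thaliana and 7.51, 12.7 and 21.2 RPKM for the A. arenosa allele in the F1. These did not overlap, and the ratio was -1.28 (SE 0.22, limma adjusted p = 0.011), whereas its parents did overlap, at 28.9 to 89.3 and 36.1 to 55.5 RPKM.

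XTH24 (AT4G30270), an enzyme that cuts and joins xyloglucan in the cell wall, had uneven F1 values. Its A. arenosa allele was at 11.3, 75.2 and 317 RPKM in the 3 F1 replicates beside 86.6, 103 and 100 RPKM of the A. thaliana allele. The groups overlapped, and the ratio of -0.55 (SE 0.76, limma adjusted p = 0.61) was within the spread. AT1G61740, of a family of sulfite exporters, was similar, with 0.274, 17.0 and 39.3 RPKM of the A. arenosa and 22.4, 29.8 and 34.2 RPKM of the A. thaliana allele (ratio -1.59, SE 0.78, limma adjusted p = 0.17). AT5G45350, a proline-rich protein, had 1.82, 5.44 and 19.4 RPKM of the A. arenosa and 38.5, 45.0 and 28.7 RPKM of the A. thaliana allele. Its ratio of -2.40 (SE 0.57, limma adjusted p = 0.028) lost its call without F1 replicate 2 (limma adjusted p = 0.0691).

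A. arenosa shares varied less over the F1 replicates at AT1G23390 and AT3G22060 than at XTH24, AT1G61740 and AT5G45350. AT1G23390, a kelch-repeat F-box protein known to target chalcone synthase, had an A. arenosa share of 18.8%, 18.1% and 19.6% in the F1. Its ratio was -2.0 (SE 0.14, limma adjusted p = 0.00215) and F8 had 32.6 RPKM of the A. thaliana allele. A. suecica expressed both, at 40.3 and 35.4 RPKM. AT3G22060, related to receptor-like kinases, had shares of 17.6%, 28.7% and 25.1% in the F1 (ratio -1.60, SE 0.20, limma adjusted p = 0.0045). Its F1 A. arenosa allele itself was less even, at 5.58, 13.3 and 14.2 RPKM. In A. suecica its A. arenosa allele made 79.8%, the highest share there of any locus at 0 in F8.

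Highly expressed genes of protein synthesis were among the loci at 0 in A. suecica. AT1G07920, a translation elongation factor of the EF-Tu family, had 63.6, 78.4 and 78.6 RPKM of the A. thaliana and 139, 162 and 209 RPKM of the A. arenosa allele in the F1. Every A. arenosa value was above every A. thaliana value, with a ratio of 1.18 (SE 0.15, limma adjusted p = 0.0045). F8 kept that order at 109 and 200 RPKM, and A. suecica had 368 RPKM of the A. thaliana allele alone. This locus has a copy, AT1G07940, at 99.6% identity, so its allele values are uncertain. The ribosomal protein gene emb2171 (AT3G04400) had 64.6, 95.7 and 107 RPKM of the A. thaliana and 130, 196 and 242 RPKM of the A. arenosa allele in the F1, which were apart (ratio 1.07, SE 0.13, limma adjusted p = 0.0047), and its nearest copy was at 85.8%. RPL10B (AT1G26910), another ribosomal protein gene, had 8.69, 12.5 and 0.734 RPKM of the A. thaliana and 24.4, 30.5 and 28.5 RPKM of the A. arenosa allele. Its A. arenosa share of 92.3% in F8 and 0% in A. suecica stood at opposite ends. RPL10B has a near copy, AT1G66580, at 89.4% identity, so reads could be split between them. The 3 ratios, RPL10B at 2.23 (SE 0.55, limma adjusted p = 0.030) included, were positive in every replicate, but all 3 calls were lost in the fit without the pairing of alleles within a replicate, at limma adjusted p of 0.0547, 0.116 and 0.0633. The RPL10B call was also lost with a pseudocount of 0.1 RPKM (limma adjusted p = 0.053).

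UBQ3 (AT5G03240), a polyubiquitin gene, behaved otherwise. It was at 161, 128 and 139 RPKM in A. thaliana and at 14.6, 11.1 and 16.5 RPKM in A. arenosa. In the F1 the A. thaliana allele was at 72.7, 81.8 and 102 RPKM and the A. arenosa allele at 0.373, 0.216 and 3.66 RPKM, and F8 still held 3.00 RPKM beside 111. The A. arenosa copy was low throughout, at a parental difference of -3.26 (SE 0.25, limma adjusted p = 0.00037) and an F1 ratio of -5.43 (SE 0.32, limma adjusted p = 0.0013). Polyubiquitin genes are near copies of each other, here AT5G20620 at 90.1%, so reads could be split among them.

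Immune genes at 0 in A. suecica differed among themselves. RLM3 (AT4G16990), a TIR-NBS disease resistance gene, was at 12.3, 15.8 and 14.0 RPKM in A. thaliana and at 2.12, 1.60 and 1.62 RPKM in A. arenosa, a difference of -2.43 (SE 0.20, limma adjusted p = 0.00053). Its F1 A. arenosa share of 9.83%, 6.67% and 7.48% and its share of 6.62% in F8 were close to each other. RK2 (AT1G65800), a receptor kinase, had shares of 42.8%, 53.1% and 63.5% in the F1 and 70.9% in F8, with 45.5 RPKM of the A. thaliana allele in A. suecica. Its F1 ratio of 0.16 (SE 0.24, limma adjusted p = 0.65) did not pass, and its near copy AT1G65790 was at 90.3%. Enzymes of the same group with a high A. thaliana allele in A. suecica were AT2G32520, a hydrolase at 28.4 RPKM, and AT2G32090, of the glyoxalase family, at 26.6 RPKM, where the F1 shares were 40.2% to 52.9% and 26.4% to 37.3%. AT3G48640, an uncharacterised protein, had an F1 A. arenosa share of 3.07%, 11.5% and 2.64% (ratio -4.00, SE 0.39, limma adjusted p = 0.0030) and a share of 0.428% in F8, the lowest there among the loci at 0 in A. suecica only.

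Some loci at 0 in A. suecica had the higher level in the A. arenosa parent. AT3G05730, a defensin-like protein, was at 19.3, 24.6 and 100 RPKM in A. thaliana and at 312, 251 and 149 RPKM in A. arenosa, which did not overlap. Its F1 A. arenosa share was 80.6%, 77.9% and 78.1% (ratio 1.83, SE 0.14, limma adjusted p = 0.0023). The parental difference of 2.60 (SE 0.65, limma adjusted p = 0.036) lost its call in each fit without 1 column except that without A. thaliana replicate 3, at limma adjusted p of 0.0757 to 0.131. It also lost the call with no filter on low values, with centring and with replicate number as a block (limma adjusted p = 0.103, 0.059 and 0.0792). PAM68 (AT4G19100), an assembly factor of photosystem II, was at 14.0, 12.7 and 31.2 RPKM in A. thaliana and at 72.3, 70.2 and 68.3 RPKM in A. arenosa, a difference of 1.93 (SE 0.36, limma adjusted p = 0.013). That call was lost without A. thaliana replicate 2 or A. arenosa replicate 2 or 3, at limma adjusted p of 0.0521 to 0.06. Its F1 ratio of 0.78 (SE 0.22, limma adjusted p = 0.042) stayed under 2-fold. RAV2 (AT1G68840), a transcription factor also known as TEMPRANILLO 2, a repressor of flowering, had a parental difference of -1.36 (SE 0.38, limma adjusted p = 0.052) and an F1 ratio of 1.16 (SE 0.22, limma adjusted p = 0.014), so that the sign of the F1 ratio was opposite to that of the parental value, which did not pass. Without F1 replicate 1 that ratio was 0.88, under 2-fold, and without the pairing of alleles the call was lost (limma adjusted p = 0.0657). HEXO2 (AT1G05590), a beta-hexosaminidase at 0 in F8 only, was at 5.36, 5.66 and 7.85 RPKM in A. thaliana and at 18.9, 16.5 and 17.3 RPKM in A. arenosa, which were apart (difference 1.36, SE 0.20, limma adjusted p = 0.0055). AT3G23760, a glycosyltransferase at 0 in A. suecica, had a difference of 1.16 (SE 0.42, limma adjusted p = 0.11), which did not pass.

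AT5G18800, of the Cox19-like family, was at 0 for different alleles in the 2 allotetraploids. In F8 the A. thaliana allele was at 0 and the A. arenosa allele at 29.1 RPKM, whereas in A. suecica the A. thaliana allele was at 12.6 RPKM and the A. arenosa allele at 0. Its F1 replicates had 5.32, 6.17 and 3.11 RPKM of the A. thaliana and 20.6, 20.0 and 17.7 RPKM of the A. arenosa allele, so that the alleles did not overlap. The ratio was 1.84 (SE 0.18, limma adjusted p = 0.0030), and a near copy lies at 87.5% identity.

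Loci at 0 in 1 library only had a wide range of shares in the other. The A. arenosa share in A. suecica of the 31 loci at 0 in F8 only was 6.36% to 79.8% with a median of 43.5%, with 5 below 20%, 22 between 20% and 60% and 4 above. All listed loci had 3.93%, 71.3% and 24.8% in these ranges there. In F8 the 48 loci at 0 in A. suecica only had a median share of 41.9%, with 5, 32 and 11 in the ranges, where all listed loci had 2.54%, 72.5% and 25%. The medians of all listed loci were 49.2% in A. suecica and 50.4% in F8.

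All 86 loci were above 1 RPKM in all 3 A. arenosa parental columns. So were 10986 of the 11014 listed loci, so nothing is read from that count. Of the 82 loci tested, at 5 RPKM or more in the mean of the higher parent, A. thaliana was called higher at 15 and A. arenosa at 6, where the background over 12739 genes was 4.21% and 10.7%. Among the loci listed in F8 or A. suecica the background was 1.64% and 6.35%. For the loci at 0 in F8 the counts were 10 and 1 of 36, and for those at 0 in A. suecica 10 and 5 of 51. Of the 5 tested loci at 0 in both, A. thaliana was called higher at all 5 and A. arenosa at 0, also at an unadjusted limma p below 0.05. The parents did not overlap, with A. arenosa lower, at 17 of 38 loci of the F8 group and 16 of 55 of the A. suecica group, against 7.25% of all listed loci, and with A. arenosa higher at 1 and 14, against 25%. The median parental difference was -0.51 for the loci at 0 in F8, against 0.31 for all genes. For the loci at 0 in A. suecica it was 0.01, which turned to -0.31 with centring and -0.39 on rescaling. After centring on the median of all genes, the split of all members was 23 and 3. After the columns were rescaled to a common sum without ribosomal RNA, which moved the median of all genes from 0.31 to -0.14, it was 21 and 2. The 15 became 8, 8 and 9 without A. thaliana replicate 2, A. arenosa replicate 2 and A. arenosa replicate 3, and the 10 of F8 became 5 without each of these. The 6 became 2 without A. thaliana replicate 2 or A. arenosa replicate 2.

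Where the parents differed, the F1 ratio had the parental sign, as it had at most of all loci called between the parents. All 21 loci called between the parents had the parental sign in the F1 as well, and at 17 the F1 ratio was called in that direction. Over all loci called between the parents and tested in both fits, 94.8% had the parental sign and 48.2% the call in that direction. Of the 82 members with both values, 63 had the same sign, beside 70.1% of all 9857 loci. At 20 of the 82 the F1 alleles were called but the parental difference was under 2-fold and not called, as at 7.05% of all loci. ELF7 (AT1G79730) was one of these, with parents at 11.8 to 13.2 and 10.8 to 11.4 RPKM.

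**Figure D3:**
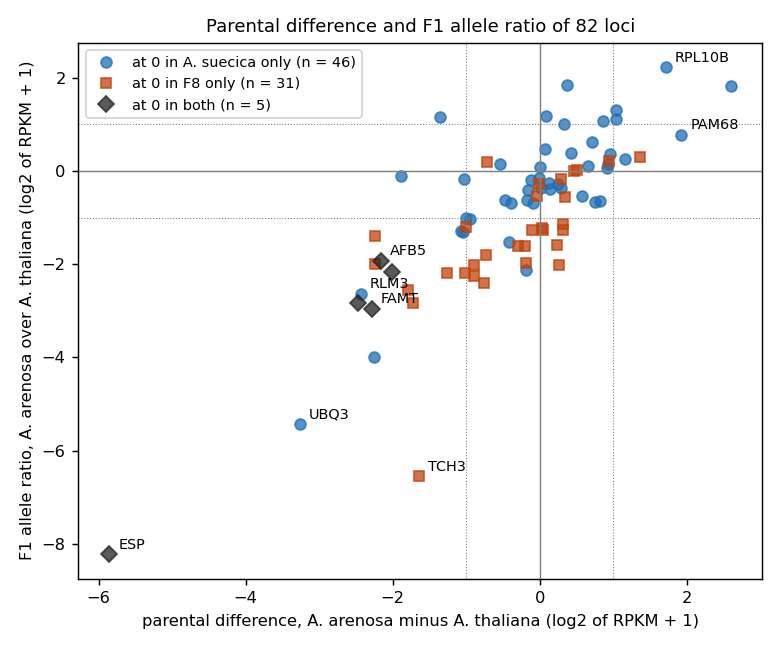
Parental difference (x axis, A. arenosa minus A. thaliana) against F1 allele ratio (y axis, A. arenosa over A. thaliana), both on the log2(RPKM + 1) scale, for the 82 loci with both values. Each point is 1 locus, coloured by where the A. arenosa allele was at 0, and dotted lines mark 2-fold; ESP is at the lower left with -5.85 and -8.23, and TCH3 lies far below the others of similar parental difference.

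By locus number, the loci at 0 in F8 were spread as 18, 3, 6, 2 and 9 over chromosomes 1 to 5, which were 0.632%, 0.186%, 0.274%, 0.119% and 0.351% of the listed loci of each chromosome. The loci at 0 in A. suecica numbered 14, 5, 14, 8 and 14, or 0.491%, 0.311%, 0.646%, 0.481% and 0.547%. Chromosome 1 thus held 18 of the 38 loci of F8. Some lay next to each other, with no other listed locus between. In F8 these were AT1G77350 and AT1G77370, then ELF7, AT1G79740 and NADP-ME4 (AT1G79750), and APD2 (AT5G01450) with AT5G01460. In A. suecica they were AT1G06510 with AT1G06515, and AT3G20870 with AT3G20890.

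The run of 3 at the lower end of chromosome 1 joins ELF7, a subunit of the PAF1 complex of RNA polymerase II that keeps the flowering repressor FLC active, AT1G79740, annotated as a protein of the hAT transposon superfamily, and NADP-ME4, a plastid NADP-malic enzyme. ELF7 had 10.3, 10.7 and 10.2 RPKM of the A. thaliana and 0.999, 1.74 and 3.43 RPKM of the A. arenosa allele in the F1. AT1G79740 had 6.66, 6.51 and 5.23 RPKM against 0.689, 0.0398 and 0.869 RPKM, and NADP-ME4 27.1, 28.0 and 24.3 RPKM against 3.77, 9.11 and 8.99 RPKM. At all 3 loci every F1 A. arenosa value was below every A. thaliana value, with ratios of -1.98, -2.26 and -1.81 (SE 0.25, 0.24 and 0.26, limma adjusted p = 0.0046, 0.0034 and 0.0067). A. suecica expressed both alleles, with A. arenosa shares of 49.8%, 31.4% and 40.7%. In TAIR10.1 the first pair overlaps by 26 bases and the next gap is 98 bases, and how the counting treated strand is not known, so the 3 are not fully separate. On the flanks in F8, AT1G79790 (annotated as FHY1) on one side had an A. arenosa share of 21.2%, still with the A. thaliana allele higher. On the other side AT1G79720 had a share of 76.8%, and NUDT3, one locus farther out, had 33.5 RPKM of the A. arenosa and none of the A. thaliana allele.

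In the other F8 pairs, AT1G77350 had F1 A. arenosa shares of 3.02%, 20.6% and 43.4%, and AT1G77370, a glutaredoxin, of 6.25%, 7.39% and 28.4%. APD2, a RING-type protein, had 4.12%, 10.9% and 73.9%, and AT5G01460, an LMBR1-like membrane protein, 36.9%, 47.1% and 66.5%. All 4 loci were highest in F1 replicate 3. The call of AT1G77370 (ratio -2.54, SE 0.40, limma adjusted p = 0.0086) held in every alternative fit, while AT1G77350 (ratio -1.62, SE 0.48, limma adjusted p = 0.049) lost it without F1 replicate 1 or 2, with a pseudocount of 0.1 RPKM (limma adjusted p = 0.0745), and with no filter or one at 1 RPKM (limma adjusted p = 0.0508 and 0.0506). Neither locus of the chromosome 5 pair was called. In the A. suecica pairs, AT1G06510 and AT1G06515 lie next to each other on opposite strands, with F1 A. arenosa shares of 42.1%, 32.6% and 54.3% and of 81.6%, 64.3% and 62.3%. AT3G20870, a ZIP metal transporter, and AT3G20890, an RNA-binding protein, had shares of 43.4% to 57.4% and 34.8% to 50.3%, which lay on both sides of 50%.

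**Figure D4:**
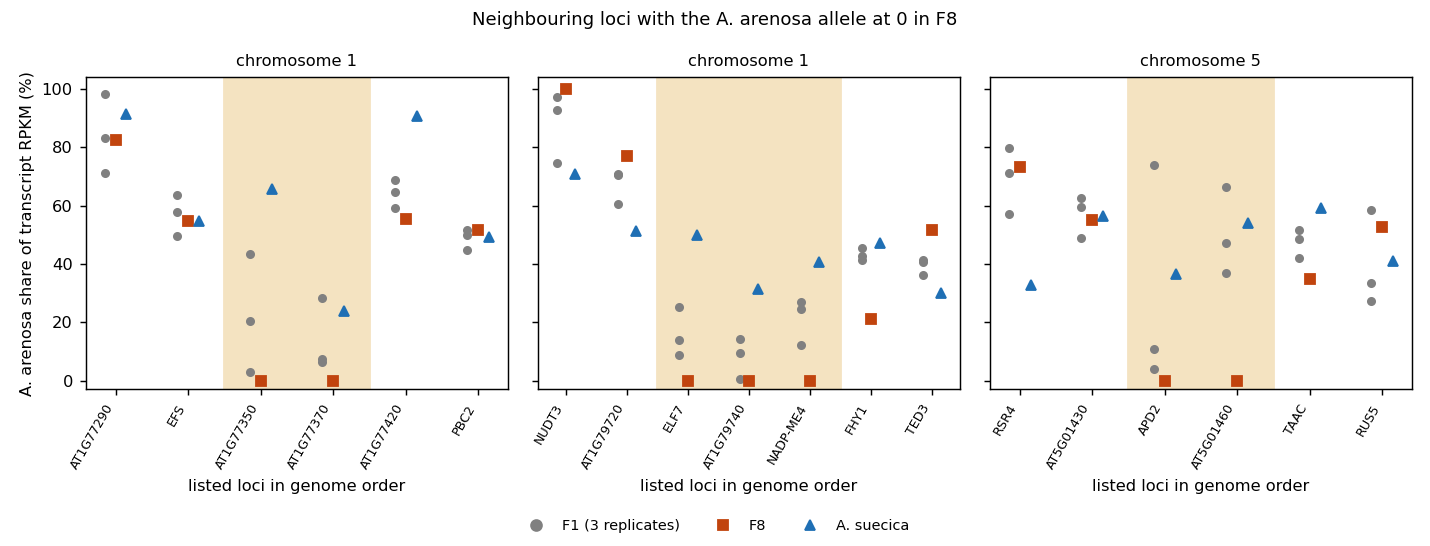
A. arenosa share (%) at the 3 groups of neighbouring loci at 0 in F8 (shaded) and at the listed loci on either side, in genome order. Circles are F1 replicates, squares F8 and triangles A. suecica; inside the shading F8 is at 0 while A. suecica lies between 23.8% and 65.6%.

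By keywords in the TAIR10.1 descriptions, 21 of the 86 loci were other enzymes, or 24.4% against 22.0% of the listed loci. Immune receptors and receptor kinases, lectins included, were 6 loci or 6.98%, against 1.76%. They were RK2, AT1G78850, RLM3 and LAZ5 at 0 in A. suecica only, AT3G22060 in F8 only and AT5G03350 in both. Ubiquitin and F-box proteins were 5 loci (5.81% against 3.59%), uncharacterised proteins 9 (10.5% against 5.57%) and kinases and phosphatases 2 (2.33% against 6.38%). Ribosome and translation had 4 loci, all in the A. suecica group, or 4.65% against 4.60%. The photosynthesis keywords, which made 1.63% of the listed loci, and the chaperone keywords matched none, although PAM68, HCF106 and LrgB are chloroplast proteins that the keywords missed. PAM68 and LrgB were counted among the uncharacterised proteins, so that class also held genes of known function. The first keyword matched set the class, so some loci were misplaced. PUP7, a purine permease, and ERF1-3, a translation release factor, fell under other enzymes. NET1B, a kinase interacting protein, fell under kinases and phosphatases. These classes were set with results of the data known and were not tested.

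Near copies made a larger share of the A. suecica group, by count and with no test. A second locus at 80% identity or more over at least 50% of the coding length was found for 21 of 55 loci at 0 in A. suecica (38.2%) and for 5 of 38 at 0 in F8 (13.2%), while 25.8% of the listed loci had one. For loci with the A. thaliana allele at 0 the share was 44.0%. AT3G49550 and AT5G24610 were the nearest copies of each other at 81.5% identity, and both were at 0 in A. suecica, with 6.79 and 38.9 RPKM of the A. thaliana allele. The part of such copies in the allele values was not tested.

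Where the A. arenosa allele was at 0, the total equals the A. thaliana allele, while the F1 total still holds both alleles. The rule thus lowers these totals against the F1, and the totals are given as a description from which nothing is read. In F8 the A. thaliana allele of the 38 loci had a median of -0.15 against the F1 mean, and their total a median of -0.68, with 4 of 38 totals above the F1. The medians of all listed loci were -0.04 and -0.01. By size, with no test, the A. thaliana allele was 2-fold higher at 2 and lower at 5 of the 38 loci, with a background of 3.87% and 5.11%. Totals, lowered by the rule, were 2-fold higher at 1 and lower at 7, where all listed loci had 2.27% and 4.48%. The 2 higher alleles were ESP at 2.08 and LrgB at 1.25, and the lowest was XTH24 at -2.17. In A. suecica the A. thaliana allele of the 55 loci had a median of 0.40 and their total of -0.53, beside 0.18 and 0.21 for all listed loci. It was 2-fold higher at 12 and lower at 7 loci, where the background was 13.9% and 10%. Totals, again lowered by the rule, were 2-fold higher at 1 and lower at 17, where all listed loci had 12.7% and 8.55%. The highest alleles were RK2 at 2.45 and AT1G07920 at 2.31, and the lowest AT1G78850 at -2.94.

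**Figure D5:**
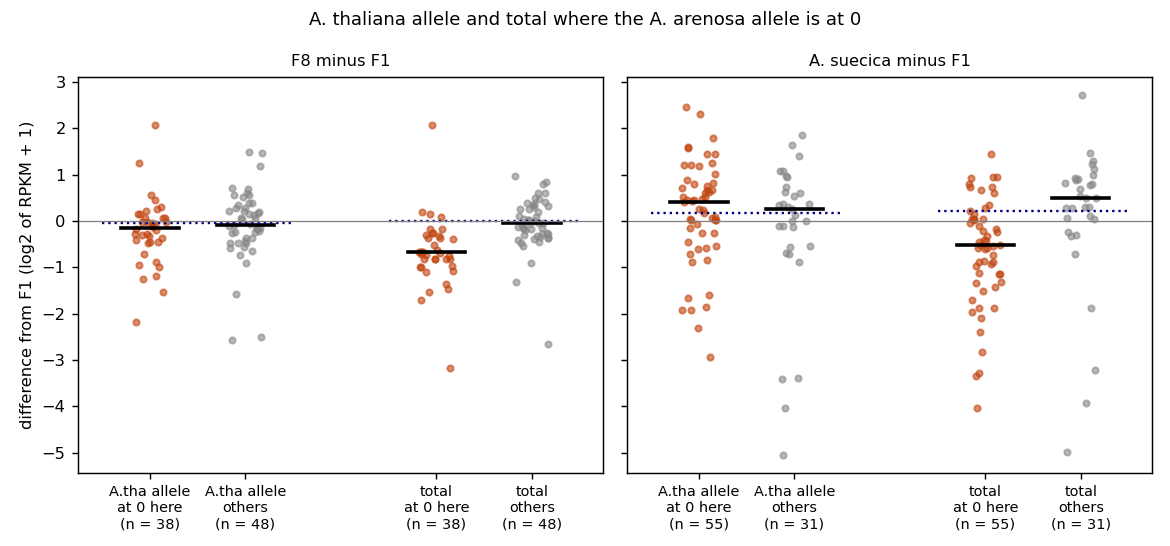
Difference from the F1 on the log2(RPKM + 1) scale for the A. thaliana allele and for the total, in F8 (left) and A. suecica (right). Each point is 1 locus, orange where its A. arenosa allele is at 0 in that library and grey for the other members, with black bars at the medians and dotted bars at the median of all listed loci; medians of the orange totals, which the rule lowers, are -0.68 and -0.53.

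Proteins known to silence gene copies were looked at together with DNA demethylases, which remove methylation. The list held 34 genes of DNA methylation, RNA-directed DNA methylation, histone modification and demethylation. None of those listed had its A. arenosa allele at 0, which covers 11 genes in F8 and 10 in A. suecica. Of all listed loci only 0.349% and 0.507% were at 0, so nothing is read from that count. Their median A. arenosa shares were 51.6% and 46.0%. Of 10 genes tested between the parents, 1 was called, higher in A. arenosa, a share near the 10.7% of all genes called that way. It was ROS1 (AT2G36490), a DNA demethylase, at 3.00, 4.75 and 4.90 RPKM in A. thaliana and 8.25, 9.17 and 17.2 RPKM in A. arenosa, which did not overlap (difference 1.22, SE 0.32, limma adjusted p = 0.042). In the F1, limma called 0 of 10 in either direction, where 8.47% and 4.42% of all loci were called with the A. arenosa or the A. thaliana allele higher, and 1 with the A. arenosa and 2 with the A. thaliana allele higher had an unadjusted p below 0.05.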

How the data were processed

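The deposited values are RPKM, computed by the authors: per the file headers, 3 replicate columns per parent, A. thaliana and A. arenosa allele columns for 3 F1 replicates, and for 1 library each of F8 and A. suecica. Per the submitters' processing notes the build was TAIR 9. Neither the aligner nor the way reads were assigned to alleles is given in the sources used here. Depth per library, and the precision it gives, is unknown, since the tables hold no counts. Gene descriptions, gene order and paralogs come from the TAIR10.1 annotation; paralogs from blastn (BLAST+ 2.17.0) of coding sequences, at 80% identity over 50% of coding length. No sequences are shown.

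One transcript stood for each locus, the one listed in the most tables, then of the highest mean RPKM. Parents were compared as log2(RPKM + 1) with limma 3.58.1 in R 4.3.3 (variance trend) over 12739 genes, leaving out loci at or within 1000 bases of a ribosomal RNA gene. F1 alleles were compared as log2((A + 1)/(T + 1)) within each replicate over 10223 loci. Filters were 5 RPKM in the higher parental mean or the mean sum of F1 alleles, and a call needed 2-fold and a Benjamini-Hochberg adjusted p below 0.05 over all genes. The added 1 understates changes of low genes. F8 and A. suecica have no test. The fits were also run on simulated data, whose outcome is not given and from which nothing is read here.

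Members, lists, tests and alternatives were chosen with earlier results of these data known. Named loci are those at 0 in both, the 10 with the highest A. thaliana allele per table, the 6 with the highest F1 A. arenosa allele, the 6 widest parental differences per direction, neighbours, and the 3 just outside. Others named (AT5G18800, ELF7 as an example, AT3G49550, AT1G78850, LAZ5) were chosen after their values were seen. Other work used Python 3.11.15 with pandas 2.3.3, numpy 2.4.6 and matplotlib 3.10.9.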

Additional observations from a re-analysis of the deposited data

Results flagged for a closer look

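At 14 loci, every F1 replicate had more of the A. arenosa than of the A. thaliana allele, whereas the allele was at 0 in F8 or A. suecica. They are 14 of 86 members, while 3774 of 10988 listed loci, or 34.3%, had such F1 shares, so the F1 shares alone do not set them apart. The difference was not tested, since F8 and A. suecica have 1 library each, and their zeros come from the rule that chose the loci. In F8 this was HEXO2, whose mean A. arenosa share in the F1 was 56.6%. In A. suecica the F1 shares were 69.4% at AT1G06515, 69.6% at AT1G07920, 57.9% at AT1G22040, 80.7% at RPL10B, 69.5% at RAV2, 70.5% at WHY3, 63.8% at SCY2, 67.8% at emb2171, 78.9% at AT3G05730, 73.0% at AT3G16220, 63.7% at PAM68, 80.3% at AT5G18800 and 53.0% at UDG4.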

How the results depend on the processing

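No member called in the F1 or between the parents changed direction under the alternatives run. The median parental difference of the loci at 0 in A. suecica, 0.01, became -0.31 with centring and -0.39 on rescaling, and that of all genes went from 0.31 to -0.14 on rescaling. Between the parents, centring on the median of all genes moved the counts over all members from 6 to 3 with A. arenosa higher and from 15 to 23 with A. thaliana higher, and rescaling moved the 6 to 2. For the loci at 0 in F8, the 1 with A. arenosa higher became 0 on rescaling, and the 10 with A. thaliana higher became 6 with no filter on low values. For those at 0 in A. suecica, the 5 with A. arenosa higher became 2 with centring, 2 on rescaling and 3 with the replicate block. Whether the replicate numbers pair the parents is not known. Deviations from the mean of each parent correlated at 0.0557, -0.162 and 0.188 between same-numbered columns. A. thaliana replicates 1 and 3 correlated best with their own number, and replicate 2 with A. arenosa replicate 1, at 0.326. With 3 columns per parent these values cannot decide it. In the F1, the 9 with the A. arenosa allele higher, over all members and over those at 0 in A. suecica, became 3 with no replicate block. Leaving out 1 column gave, between the parents, 2 to 9 and 8 to 16 over all members (A. arenosa, then A. thaliana higher), 1 to 2 and 5 to 11 for F8, and 1 to 7 and 7 to 10 for A. suecica. In the F1 it gave 6 to 9 and 24 to 34, 0 and 15 to 26, and 6 to 9 and 12 to 13. The 86 loci became 44 with a minimum total of 10 RPKM, and 65 at 5 RPKM. Of 43 members called in the F1, 23 kept the call in every alternative, and of 21 called between the parents 8 did. Without counts, the depth behind a share cannot limit or support a 0.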
